A study of Homo sapiens with 4 samples.

Results

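Metallothionein genes and the genes that sense and export zinc were followed in HCT116, a standard colorectal cancer line of human origin, after siRNA against TET1, the gene of an enzyme that converts 5-methylcytosine in DNA to its hydroxymethyl form. The 9 genes are the metallothionein genes MT1E, MT1F, MT1G, MT1H, MT1HL1, MT1X and MT2A, the metal-sensing transcription factor gene MTF1 and the zinc exporter gene SLC30A1, 9 of the 19775 genes with a probe set of their own. Every probe set whose only annotated gene symbol is one of these was taken, which gave 17 of the 54613 probe sets that are not array controls: 11 for metallothioneins, 3 for MTF1 and 3 for SLC30A1. The genes were chosen by name, with the earlier signal differences between TET1 siRNA and control siRNA in view. Their differences between the siRNA groups are therefore given as a description. Calls of these genes rest on a limma adjusted p below 0.05, are printed without the p-values and are part of that description.

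The arrays were Affymetrix GeneChips, 1 for each of 4 RNA samples. The control siRNA group and the TET1 siRNA group had 2 samples each, which the series calls biological duplicates; all 4 were HCT116 cells grown in McCoy's 5A medium with serum and transfected with Lipofectamin RNAiMAX, so the controls carry the transfection too. The labels name 1 siRNA against TET1, 1 cell line and no time after transfection, so loss of TET1 and other effects of that siRNA cannot be told apart. Signals are linear, in arbitrary units, and each array had been scaled to a trimmed mean of 100.01. Precision is limited by there being 4 arrays.

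Metallothioneins are small cysteine-rich proteins that bind zinc, copper and cadmium, buffer free zinc and are known to take up oxidants. MTF1 is a zinc-finger protein that binds metal response elements in DNA when zinc is plentiful and switches on metallothionein genes and SLC30A1, whose product moves zinc out of the cytosol. In the intestine this system handles the metals taken up from food, and metallothionein levels are known to vary widely among colorectal tumours.

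The human metallothionein genes lie in a cluster on chromosome 16, and RefSeq promoter windows of GRCh38.p14, from 250 bases before to 50 bases after the start, were given for 5 of the 9 genes. They are shown because all tested metallothionein probe sets lay on the same side of 0 and because the metal response element is the site through which MTF1 acts. Whether these sites had a part in the signals was not tested. Capitals mark matches to the core of the metal response element, searched as TGCACNC and TGCGCNC on both strands. The MT2A window is chr16:56608334-56608633, plus strand, that of MT1X chr16:56682220-56682519, plus strand, that of MT1H chr16:56669564-56669863, plus strand, and that of SLC30A1 chr1:211579112-211579411, minus strand.
MT2A: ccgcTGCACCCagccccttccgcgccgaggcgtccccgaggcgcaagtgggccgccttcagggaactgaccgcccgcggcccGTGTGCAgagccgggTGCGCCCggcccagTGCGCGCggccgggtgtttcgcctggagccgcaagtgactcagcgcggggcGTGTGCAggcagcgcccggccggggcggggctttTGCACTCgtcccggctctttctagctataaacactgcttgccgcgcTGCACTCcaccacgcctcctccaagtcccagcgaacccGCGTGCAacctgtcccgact
MT1X: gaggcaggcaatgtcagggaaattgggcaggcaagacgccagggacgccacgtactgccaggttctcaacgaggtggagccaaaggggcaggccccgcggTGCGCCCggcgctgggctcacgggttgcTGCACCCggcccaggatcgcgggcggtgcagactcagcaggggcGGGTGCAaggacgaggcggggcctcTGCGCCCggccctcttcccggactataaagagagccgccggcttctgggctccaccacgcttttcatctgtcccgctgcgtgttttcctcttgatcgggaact
MT1H: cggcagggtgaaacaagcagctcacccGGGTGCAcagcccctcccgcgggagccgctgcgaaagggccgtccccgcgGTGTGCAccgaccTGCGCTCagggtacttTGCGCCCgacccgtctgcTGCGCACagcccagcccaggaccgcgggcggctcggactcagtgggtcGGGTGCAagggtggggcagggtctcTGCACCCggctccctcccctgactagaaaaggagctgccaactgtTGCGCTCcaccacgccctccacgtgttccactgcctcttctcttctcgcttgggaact
SLC30A1: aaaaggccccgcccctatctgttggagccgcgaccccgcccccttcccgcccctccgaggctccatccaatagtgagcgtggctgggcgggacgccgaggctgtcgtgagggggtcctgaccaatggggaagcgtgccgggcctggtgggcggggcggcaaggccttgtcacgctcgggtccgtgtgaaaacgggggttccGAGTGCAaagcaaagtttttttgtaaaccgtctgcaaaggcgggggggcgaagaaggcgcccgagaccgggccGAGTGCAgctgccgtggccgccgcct

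The MT2A and MT1H windows each hold 8 core matches, the MT1X window 4, the SLC30A1 window 2 and the MTF1 window (chr1:37859543-37859842, minus strand) 0. Of 35116 RefSeq windows of the same length, 29.6% hold at least 1 match, 0.0199% hold 8 or more and 0.601% hold 4 or more; 8.60% hold 2 or more. Some genes have several windows in that table. Positions are counted from the start site, base 0. A match on the gene's strand begins at -54 in MT2A and at -53 in MT1X and MT1H, and one on the other strand begins at -88 in MT2A and at -78 in both MT1X and MT1H. The letters TATAAA begin at -29 in MT2A and at -30 in MT1X and were not found on either strand of the other 3 windows; 11.5% of all windows hold them. The core of the antioxidant response element, TGACNNNGC on either strand, occurs once in each of MT2A (-104), MT1X (-243) and SLC30A1 (-88), against 13.3% of all windows with at least 1. No match overlaps another. CpG dinucleotides, the sites on which TET1 acts when they are methylated, number 37 in MT2A, 26 in MT1X, 25 in MT1H, 30 in SLC30A1 and 24 in MTF1, against a median of 14 over all windows. The share of all windows with at least as many CpG ran from 11.3% for MT2A to 33.9% for MTF1, so such counts are common. These are matches of letters; no binding and no methylation was measured here.

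**Figure D1:**
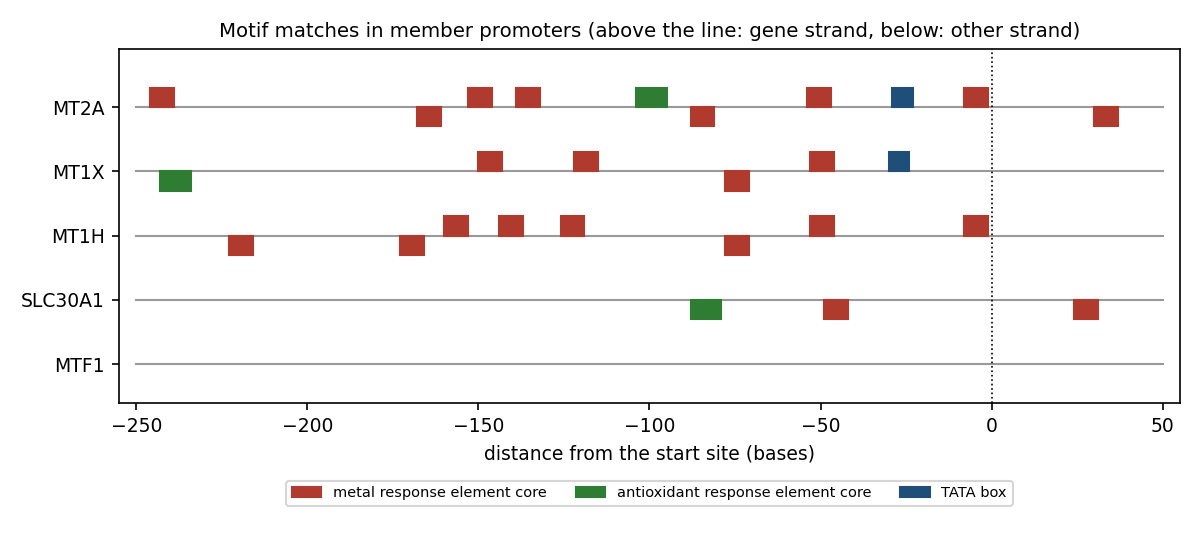
Matches to 3 motifs in the promoter windows of 5 genes, by distance from the start site in bases; boxes above a line lie on the gene's strand and boxes below it on the other strand. MT2A and MT1H each show 8 metal response element cores, MT1X 4, SLC30A1 2 and MTF1 0.

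TET1 itself was lower on both TET1 siRNA arrays, at 14.6 and 15 against 58.1 and 59.6 by its brighter probe set (log2 difference -1.28, SE 0.19, limma adjusted p = 0.00127; -1.92 with a pseudocount of 1 and -0.64 with 64), and the dimmer probe set did not pass (-0.84, adjusted p = 0.0509). The epithelial markers EPCAM, KRT8 and KRT18 were bright on all arrays (2401.9 or more), whereas the intestinal markers VIL1 (10 to 18.9) and CDX2 (4.7 to 15.3) were near or below the array medians, which ran from 13.9 to 15.5. Of these KRT8 rose (0.32, limma adjusted p = 0.0134), and CDH1, the E-cadherin gene, fell by 1.16 (adjusted p = 6.56e-05). Markers of endothelial cells, leukocytes and hepatocytes gave no call among 4 that could be tested. Of 6 fibroblast markers 3 were above the filter and 1, COL1A1, was higher (0.47, limma adjusted p = 0.0345); its 2 other tested probe sets were not called, and the other tested markers were COL1A2 (-0.20, adjusted p = 0.64) and DCN (-0.10, adjusted p = 0.832). The summed signal of the 6, most of it from COL1A1, was 317.7 to 357.5 on the controls and 394.8 to 492.3 on the TET1 siRNA arrays, and its part in the results below was not tested.

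Metallothionein signals were lower after TET1 siRNA, by a small amount and in nearly every probe set. Of the 11 probe sets 10 were above the filter on dim signals (mean above the median of all probe sets, a signal of 13.1), and in all 10 the TET1 siRNA mean was 68.2% to 89.5% of the control mean. Log2 differences, on log2(signal + 16) and taken as TET1 siRNA minus control siRNA, ran from -0.54 to -0.16 with a median of -0.31, while the median over all 27306 probe sets tested was -0.0098. Limma called 7 of the 10 lower and none higher; the share of all tested probe sets called lower is 8.31%, and 7.76% were called higher. Among the 4960 probe sets at least as bright as the dimmest of these 10, 15.2% were called lower and 19.5% higher. Both TET1 siRNA arrays lay below both control arrays in 8 of the 10, an arrangement found in 28.9% of all tested probe sets; in 27.3% both lay above. No metallothionein difference reached 1.5-fold together with a call. In a whole culture, fewer cells with a transcript and less transcript per cell cannot be told apart.

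All 10 are _x_at probe sets, a suffix by which the manufacturer marks sets holding probes that can bind other transcripts. Metallothionein genes are much alike in sequence, so a signal printed under 1 gene name may come in part from other members. The 10 are therefore not independent measurements of 7 genes. Over all 2597 _x_at probe sets tested the median log2 difference was -0.016, and 7.28% were called lower and 6.31% higher. The metallothionein member with a set not marked in this way, MT1G by 210472_at, read 3.7 and 8.8 on the controls and 1.8 and 2.8 after TET1 siRNA, all below the array medians, and was not tested.

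MT2A is the metallothionein gene known for high expression in most human cells. Its probe set read 6285.1 and 6049.4 on the controls and 5308.5 and 4754.1 after TET1 siRNA, and the groups did not overlap. The means were 6167 ± 167 and 5031 ± 392 (SD, n = 2 each), 81.6% of control, and the log2 difference was -0.29 (SE 0.067). MT2A was among the calls, and it lost its call without TET1 siRNA replicate 2, where the log2 difference was -0.22. Its call was also lost without the filter on dim signals, without a variance trend in limma and without moderation of the variance.

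MT1X, one of the metal-inducible MT1 genes, has 2 probe sets that differ in how far they moved. By 204326_x_at the control arrays read 1422.1 and 1339.2 and the TET1 siRNA arrays 1043.5 and 1016.7, 74.6% of control, with a log2 difference of -0.42 (SE 0.072). This was the one metallothionein call, besides that of MT1HL1, that was also made when any single array was left out. Neither of these calls was made without a variance trend in limma or without moderation of the variance. That of MT1HL1 was also lost without the filter on dim signals. By 208581_x_at the control arrays read 3291.6 and 3253.4 and the TET1 siRNA arrays 3266 and 2594.6. TET1 siRNA replicate 1 lay between the controls and only replicate 2 lay below them, so the groups overlapped, and the difference of -0.17 (SE 0.093) was not called. Without TET1 siRNA replicate 2 it was -0.0028; without replicate 1 of that group it was -0.33 and called.

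MT1E also has 2 probe sets, and both were lower. 212859_x_at read 3212.5 and 3023.4 with control siRNA against 2615.5 and 2687.1 with TET1 siRNA (-0.23, SE 0.064). 216336_x_at read 2023.8 and 1970.2 against 1615.1 and 1668.3 (-0.28, SE 0.066). In neither did the groups overlap, and both were called. Neither was called without the filter on dim signals, without a variance trend in limma or without moderation of the variance. Median centring of the arrays also ended the call of 212859_x_at. With 1 array left out, the difference ran from -0.28 to -0.19 for 212859_x_at and from -0.30 to -0.26 for 216336_x_at. Neither call held through every left-out array.

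The 2 probe sets of MT1F parted. 217165_x_at read 1493.2 and 1390 on the controls and 1157.8 and 1140.9 after TET1 siRNA, 79.7% of control, and was called (-0.32, SE 0.072). That call was lost without a variance trend in limma and without moderation of the variance, and it did not hold through every left-out array. 213629_x_at read 422.5 and 397.9 against 337.3 and 397.3 and was not called (-0.16, SE 0.10). There the groups were separate by 0.6 units, and TET1 siRNA replicate 1 was the low array: without it the difference was -0.044, and leaving out TET1 siRNA replicate 2 gave -0.27.

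MT1G, a gene often reported as silenced by methylation in tumours, read 838 and 782 on the controls and 679 and 610.7 after TET1 siRNA by 204745_x_at. The groups did not overlap, and the difference of -0.32 (SE 0.086) was called. That call was lost with median centring, without the filter on dim signals, without a variance trend and without moderation of the variance. Nor did it hold through every left-out array. The neighbouring gene MT1H read 1873.1 and 1698.3 against 1729.1 and 1134.6. Only TET1 siRNA replicate 2 was below both controls, and the difference of -0.34 (SE 0.15) was not called. The difference was -0.044 without TET1 siRNA replicate 2; leaving out TET1 siRNA replicate 1 made it -0.65, and it was then called.

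MT1HL1, a metallothionein-like gene outside the chromosome 16 cluster, had the most negative difference among the 10. Its probe set read 4388.4 and 3313.6 on the controls and 2600.1 and 2650.1 after TET1 siRNA. The groups did not overlap, the means were 3851 ± 760 and 2625 ± 35.4 (SD, n = 2 each), and the log2 difference was -0.54 (SE 0.11). The control arrays lay farther apart here than in any other metallothionein probe set tested (coefficient of variation 19.7%), and the difference was -0.33 without control siRNA replicate 1 and -0.74 without control siRNA replicate 2.

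**Figure D2:**
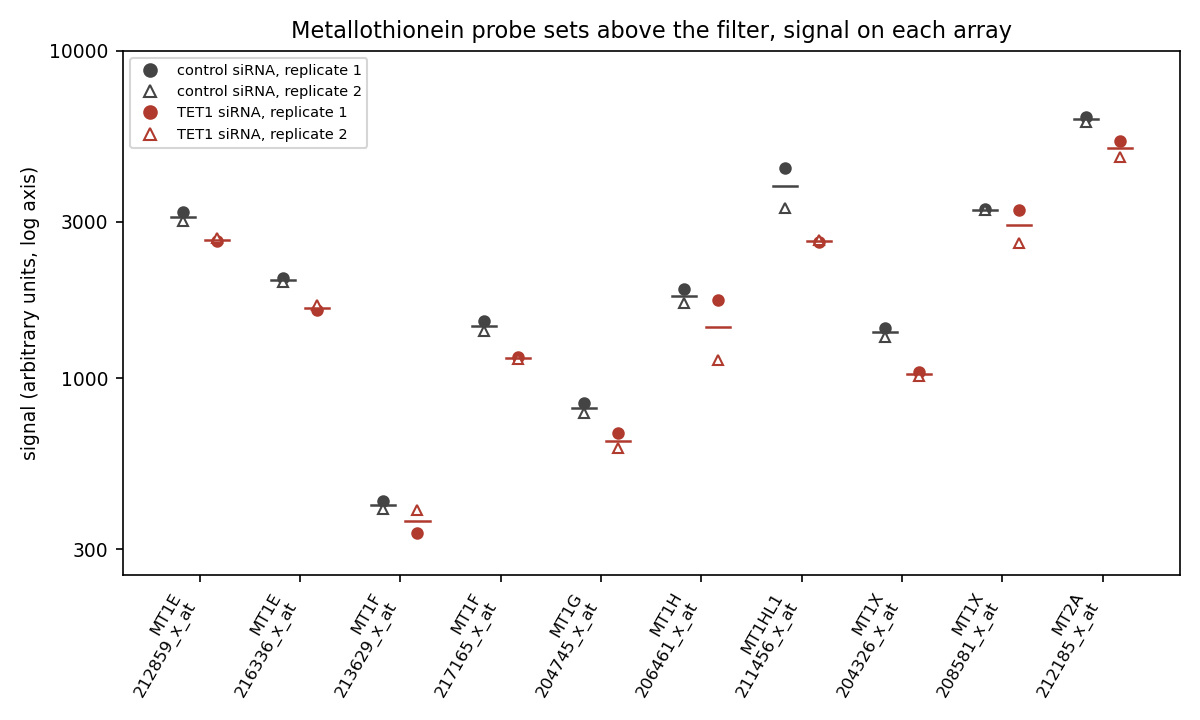
Signal of the 10 metallothionein probe sets above the filter on each array (log axis, arbitrary units), control siRNA in grey and TET1 siRNA in red; short lines are means of 2 arrays. The red points lie below the grey ones in 8 probe sets and overlap them in MT1H and in MT1X 208581_x_at; brightness is not comparable between probe sets.

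Across the 10 probe sets the TET1 siRNA arrays differed from each other. The median deviation from the control mean, on the log2 scale, was -0.26 on TET1 siRNA replicate 1 and -0.35 on TET1 siRNA replicate 2, and 0.043 and -0.043 on the control arrays. TET1 siRNA replicate 2 held the lowest signal in 6 of the 10 and TET1 siRNA replicate 1 in the other 4. The number of metallothionein probe sets called lower was 6 without TET1 siRNA replicate 1, 2 without TET1 siRNA replicate 2, 3 without control siRNA replicate 1 and 7 without control siRNA replicate 2. It was 0 when limma's variance was not allowed to depend on signal (5 at unadjusted p below 0.05). All 10 differences were below 0 under every array scaling, pseudocount and left-out array that was tried. The control arrays also parted 1 way in all 10, with control siRNA replicate 1 above their mean by 0.0084 to 0.20. A shared sign over these 10 probe sets thus also arose within 1 group, so it is no measure of how firm the difference is.

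MTF1 is the transcription factor that reads zinc. Its brightest probe set, 227150_at, read 221.8 and 176.2 on the controls and 153 and 130.5 after TET1 siRNA. The groups did not overlap, and the log2 difference of -0.44 (SE 0.14) was not called. It was called in 4 of 15 alternatives, among them the fit on brightest probe sets alone and that without control siRNA replicate 2 (-0.60); without control siRNA replicate 1 it was -0.29 and not called. The other probe sets, 205322_s_at at 65.4 and 60.4 against 62 and 82.3 and 205323_s_at at 69.1 and 66.7 against 87 and 66.5, overlapped between the groups, with differences of 0.15 (SE 0.17) and 0.14 (SE 0.17) that changed sign when 1 array was left out (-0.016 without TET1 siRNA replicate 2 for the first, -0.024 without replicate 1 of that group for the other). With the mean of its probe sets MTF1 was at -0.052, so these arrays give MTF1 no single direction.

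SLC30A1 encodes the zinc exporter of the plasma membrane. By 212907_at it read 267.6 and 302.2 on the controls and 411.2 and 476.8 after TET1 siRNA, so both TET1 siRNA arrays were above both controls. The means were 284.9 ± 24.5 and 444 ± 46.4 (SD, n = 2 each), a ratio of 1.56, and the log2 difference was 0.61 (SE 0.11). It was the only call of a rise among the 15 member probe sets tested, and it was made again with any single array left out (0.51 to 0.71). It was not made without the variance trend or without moderation of the variance. By 228181_at the signals were 96.8 and 88.3 against 112.1 and 110.6; the groups did not overlap, and the difference of 0.23 (SE 0.14) was not called. The third probe set, 242716_at, read 0.6 to 0.8 on all arrays and was not tested. Averaged over its probe sets SLC30A1 was at 0.28 and not called. That average counts in the dim 242716_at, whose difference was 0.0086, and this set pulls it down.

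**Figure D3:**
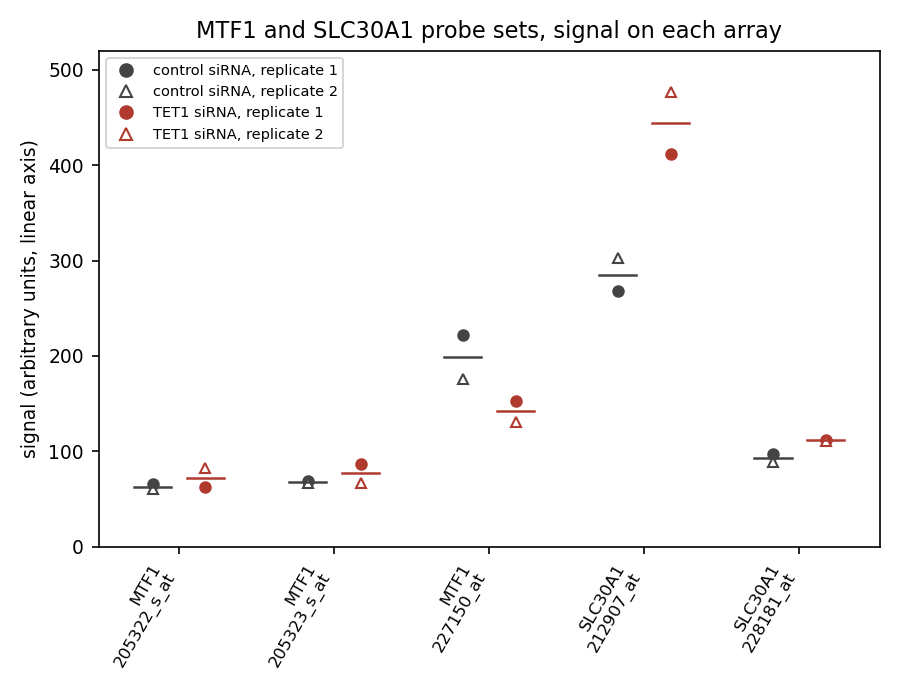
Signal of the tested MTF1 and SLC30A1 probe sets on each array (linear axis, arbitrary units); short lines are means of 2 arrays. SLC30A1 212907_at reads 411.2 and 476.8 with TET1 siRNA against 267.6 and 302.2 with control siRNA, while the MTF1 sets 205322_s_at and 205323_s_at overlap between groups.

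The tested metallothionein probe sets and those of the exporter lay on opposite sides of 0. Counting all 17 probe sets, 15 were tested, 7 were called lower, 1 was called higher, 7 were not called and 2 were below the filter.

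**Figure D4:**
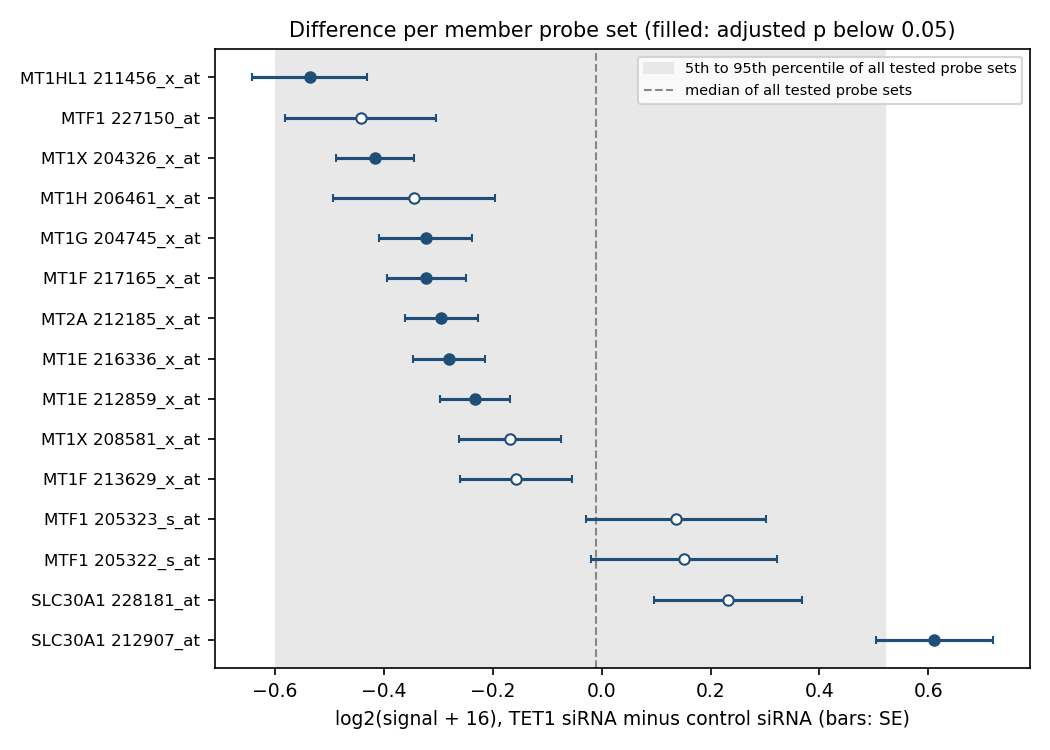
Log2 difference (TET1 siRNA minus control siRNA, on log2(signal + 16)) of each of the 15 tested member probe sets, with its SE; filled points were called by limma. The grey band holds the 5th to 95th percentile of all tested probe sets (-0.60 to 0.52), and SLC30A1 212907_at at 0.61 lies outside it while MT1HL1 at -0.54 lies inside.

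Other metallothionein genes gave little signal. Of 9 written in a list of the rest of the family, 3 had a probe set with that symbol alone: MT3, known from brain, at 16.2 and 21.2 against 8.9 and 13.6 (-0.35, SE 0.24, limma adjusted p = 0.371), MT4 at 20.3 or less and MT1M at 5.3 or less. The last 2 were below the filter.

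Genes of zinc and copper transport other than SLC30A1 were called in both directions. Of 30 tested genes in these lists, each by its brightest probe set, 3 rose and 3 fell, against 10.0% and 9.55% of all genes called higher and lower; their median log2 difference was 0.074 and that of all genes 0.0098. Among 6 other SLC30 exporters tested, SLC30A9, a zinc transporter of mitochondria, rose from 422.8 ± 7.78 to 626 ± 36.1 (SD, n = 2; 0.55, SE 0.087, limma adjusted p = 0.00176). The other tested probe set of SLC30A9 was not called. SLC30A3 had the highest difference of these exporters and did not pass (17.4 and 41 against 61.1 and 51, a difference of 0.72, SE 0.25, limma adjusted p = 0.076). The median of the 6 was 0.18.

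Of 11 SLC39 importers tested, 1 rose and 1 fell, with a median of -0.013. SLC39A8, which imports zinc and manganese, read 495.1 and 599.9 on the controls and 398.3 and 337.1 after TET1 siRNA (-0.55, SE 0.11, limma adjusted p = 0.00798). SLC39A9 read 688.1 and 638.4 against 837.8 and 776.6 (0.28, SE 0.083, limma adjusted p = 0.0446). Neither had another probe set that passed.

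Metallothioneins also bind copper, and of 13 copper genes tested 1 rose and 2 fell, with a median of 0.17. SLC31A1, the copper importer of the plasma membrane, went from 225.1 and 339.1 to 113.5 and 138.5 (-1.05, SE 0.17, limma adjusted p = 0.00215), and its other probe set also passed as lower. ATOX1, the chaperone that hands copper to the export pumps, went from 707.9 and 805.9 to 506 and 518.6 (-0.55, SE 0.089, limma adjusted p = 0.00205). COMMD1, which takes part in copper export, rose from 501 and 460.5 to 717.6 and 711.2 (0.56, SE 0.084, limma adjusted p = 0.00135). The export pump genes ATP7A (-0.11, adjusted p = 0.658) and ATP7B (-0.048, adjusted p = 0.893) did not pass. COX11 did not pass by its brightest probe set (0.17, limma adjusted p = 0.147), although another probe set of it passed as higher (0.56, adjusted p = 0.0134).

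**Figure D5:**
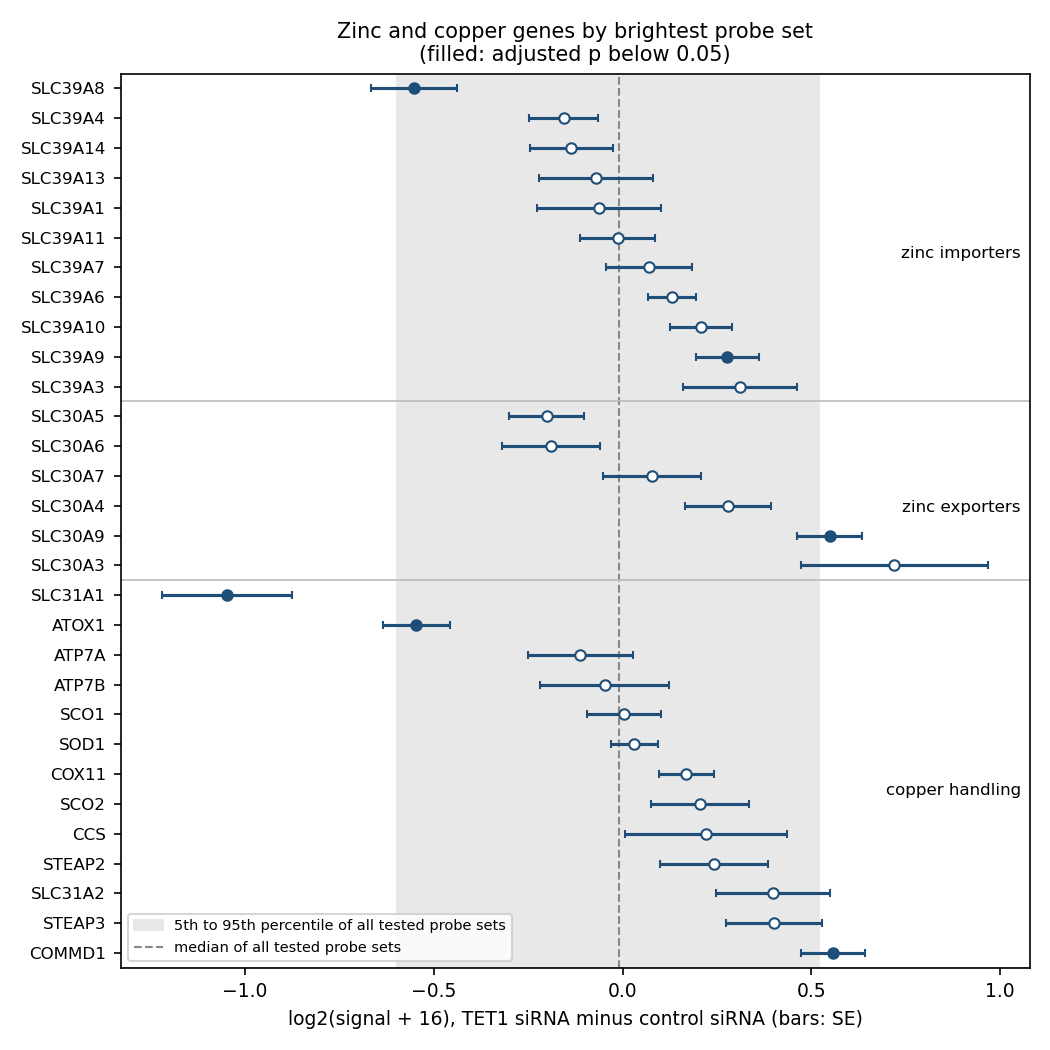
Log2 difference (TET1 siRNA minus control siRNA) with SE of 30 zinc importer, zinc exporter and copper handling genes by their brightest probe sets; filled points passed limma at adjusted p below 0.05. SLC31A1 at -1.05 is the lowest, and the median of all tested probe sets is the dashed line at -0.0098.

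In a list of genes tied to the metal and oxidant response, regulators such as KEAP1 among them, those that passed rose. Of 10 tested in that list 4 rose and none fell, against 10.0% and 9.55% of all genes, with a median of 0.14: GCLM (glutathione synthesis), SQSTM1 (autophagy receptor), HMOX1 (haem oxygenase) and TXNRD1 (thioredoxin reductase), between 0.55 and 0.99 (limma adjusted p 7.34e-05 to 0.00321). These 4 are also targets of NRF2. Of the other probe sets, 1 of GCLM and 1 of SQSTM1 passed as higher, and 1 of SQSTM1 passed as lower. The 6 genes not called were GCLC (-0.040), KEAP1 (0.25), NDRG1 (-0.17), NFE2L2 (0.026), PLCG1 (-0.18) and SELENOW (-0.14), with limma adjusted p from 0.131 to 0.850. Glucocorticoids are a further known inducer of metallothioneins, and of 8 tested response genes, read against the same shares, 2 rose, DUSP1 (0.55, limma adjusted p = 0.00895) and SGK1 (0.40, adjusted p = 0.0446), and 2 fell, FKBP5 (-0.37, adjusted p = 0.0142) and TSC22D3 (-0.57, adjusted p = 0.0199). No other tested probe set of DUSP1, FKBP5 or TSC22D3 was called, and SGK1 had no other one tested. The glucocorticoid receptor gene NR3C1 did not pass (-0.39, limma adjusted p = 0.071).

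Of 7 tested genes around the metallothionein cluster, 1 passed by its brightest probe set, against 10.0% of all genes called higher and 9.55% lower: HERPUD1, an endoplasmic reticulum stress gene, rose from 647.1 and 637.8 to 1035.8 and 859.4 (0.54, SE 0.095, limma adjusted p = 0.00302). The others were NUP93 (-0.28, adjusted p = 0.065), GNAO1 (-0.15, adjusted p = 0.855), NUDT21 (-0.013, adjusted p = 0.94, although another probe set of it passed as higher at 0.42, adjusted p = 0.00506), LPCAT2 (0.098, adjusted p = 0.679), OGFOD1 (0.10, adjusted p = 0.615) and BBS2 (0.15, adjusted p = 0.432), all by limma. The median of the 7 was 0.098.

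The probe sets of other genes closest to MT2A over the 4 arrays, by Euclidean distance of mean-centred log2 values, were those of DST (0.011), MARVELD2 (0.014), CD55 (0.020), ZDHHC7 (0.022) and UBQLN4 (0.024). Within the family MT1G was closest at 0.042, with 29 probe sets of any gene nearer to MT2A, and MT1HL1 was farthest at 0.37. Over 4 arrays such distances are a description only.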

How the data were processed

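Total RNA was primed with oligo(dT) and hybridised as biotin-labelled cRNA, per the labels' protocols, so signals come mainly from transcript 3' ends. The deposited values are a linear intensity per probe set, used as deposited. Their trimmed means (2% at either end) are equal, so the authors' values were scaled per array, which hides a change in total mRNA. Which software and background step made them is not given in the sources used here; dim differences depend on that step.

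Of 54675 probe sets 62 controls were left out. Annotation tied 41091 probe sets to 1 gene symbol, 1801 to several and 11721 to none. All 27306 probe sets above the median (log2 4.86) were fitted one by one with limma 3.58.1 in R 4.3.3 (lmFit, eBayes with variance trend; 2 residual and 8.73 prior degrees of freedom), two-sided, Benjamini-Hochberg adjusted over all of them; calls are at adjusted p below 0.05. The log2(signal + 16) scale understates the change of dim probe sets. With 2 arrays a group, the smallest exact permutation p is 0.33. Listed genes were represented by their brightest probe set. Members and lists were chosen with earlier results of these data known. Named were all member probe sets, passing list genes (up to 6 a list) and otherwise the brightest or all cluster neighbours. The epithelial markers and the 5 probe sets nearest to MT2A were also named. Added after their values were seen were SLC30A3, ATP7A, ATP7B, NR3C1, MT3, MT4, MT1M, COX11, GCLC, KEAP1, NDRG1, NFE2L2, PLCG1 and SELENOW. Motifs were searched in RefSeq windows of GRCh38.p14. Figures were drawn with matplotlib 3.10.9. Alternatives are given in the closing section.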

Additional observations from a re-analysis of the deposited data

How the results depend on the processing

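With 2 arrays a group, signal over background and array number limit every value. Without a variance trend limma called 298 probe sets higher and 541 lower, and 0 member and 0 zinc and copper list entries in either direction (unadjusted p below 0.05: 1 member higher and 6 lower, 6 list genes higher and 3 lower). Without moderation 0 were higher and 1 lower, again with 0 members and 0 list genes (unadjusted: 1 and 4 members, 5 and 1 list genes), and TET1 was at -1.28 (adjusted p = 0.121; 9.69e-04 to 0.0293 in the other alternatives). With no filter 1098 were higher and 1204 lower, with 2 members lower. Without _x_at and _s_at probe sets the counts were 1104 and 1248, with 0 members lower (1 at unadjusted p below 0.05, and no metallothionein left to test) and 1 list gene lower. At 1.5-fold or more they were 795 and 1161, with 0 members lower, 0 list genes higher and 1 lower. With the mean of the probe sets of a gene 772 and 892 genes passed, with 0 members higher (1 at unadjusted p) and 4 lower, and with the brightest probe set 1393 and 1316, in part because fewer features were tested. The gene means counted in member probe sets below the filter, 242716_at of SLC30A1 and 210472_at of MT1G.

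Leaving out 1 array, with the single remaining array taken to vary as the other group does, gave 1257 to 1646 probe sets higher, 1421 to 1630 lower, and 2 to 8 members lower: 2 without TET1 siRNA replicate 2 and 3 without control siRNA replicate 1. With the replicate block 9 members were lower and 1 higher; same-numbered arrays share only a number (correlation of deviations 0.0066). No member called in the fit changed sign in any alternative. Quantile normalization, median centring, pseudocounts of 1 and 64 and an upper-quartile filter kept the counts of members within 1.5 times.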
